A study of Homo sapiens with 4 samples.

Results

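TXNIP, its alpha-arrestin relatives ARRDC1, ARRDC2, ARRDC3 and ARRDC4, and the glucose-sensing transcription factors MLXIP (MondoA), MLX and MLXIPL (ChREBP) were examined in SKBR3 cells, a HER2-positive breast cancer line. These 8 genes were picked out of 56271 rows of the count table. TXNIP was selected on its strong fall in VIRMA-overexpressing cells, so its difference is given as a description with no test. The others were added as members of its family or as factors that control it, with results of these data known. All 8 were measured and all 8 passed the filter on low values, which asked for an RPKM over 1 in 2 or more libraries. RPKM is the count scaled to exonic length and library size.

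Poly-A RNA was sequenced from 2 libraries of eGFP control cells and 2 libraries of VIRMA-overexpressing cells. Control cells carried a FUW lentiviral vector with eGFP behind the human ubiquitin C promoter, and the other cells carried full-length, HA-tagged VIRMA joined to eGFP in the same vector. Per the study's methods both populations were transduced, sorted for eGFP and expanded, so that each group is a pool of transduced cells of 1 line. The labels of all 4 samples describe a low-oxygen chamber, whereas the study's methods describe ordinary culture for its lines. The oxygen level is therefore uncertain, and the glucose level of the medium at harvest is not given in the sources used here. The study's methods call the sequenced samples biological duplicates. Whether the libraries of a group came from separate transductions is not given, so the p-values measure only the spread between these libraries.

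VIRMA itself (listed as KIAA1429) was counted 710 and 682 times under eGFP alone, against 3437 and 3460 times in the other group, which matched the labels. Library totals ran from 81446932 to 86375474 counts. Of the 10 luminal and HER2 markers checked, ERBB2, KRT8, KRT18 and KRT19 were the most abundant, and ERBB2 stood at 7084 CPM (counts scaled to library size with TMM factors, which even out composition) under eGFP alone and 7079 CPM with VIRMA. Of these 10, 4 were higher in both controls, KRT8 among them (8368 against 5874 CPM), and 4 were higher in both VIRMA-overexpressing libraries, GRB7 among them (776 against 1044 CPM), where 84.3% of all tested genes did not overlap between groups. CDH1 (E-cadherin), which this line is known to lack, was near 0 in every library, at 5 to 33 counts. All 8 erythroid markers were higher in both control libraries than in both VIRMA-overexpressing libraries. Their summed level was 20.5 to 28.3 CPM with eGFP and 0.326 to 0.483 CPM with VIRMA, where 5 of the 8, HBB (beta-globin) among them, were at 0 in both libraries. The 8 leukocyte markers summed to 2.28 to 3.35 CPM against 1.88 to 1.91 CPM, with 5 of them higher in both controls and 2 higher in both VIRMA-overexpressing libraries. The 8 stromal and endothelial markers summed to 19.7 to 21.5 CPM against 16.5 to 18.0 CPM, with 4 higher in both controls and 1 higher in both VIRMA-overexpressing libraries.

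Alpha-arrestins are adaptor proteins with an arrestin fold that bring HECT-type ubiquitin ligases of the NEDD4 family to membrane cargo through PPxY motifs. TXNIP is the member that also binds and inhibits thioredoxin, and TXNIP and ARRDC4 are known to restrain glucose uptake. MondoA and ChREBP, each paired with MLX, enter the nucleus when glucose 6-phosphate and related sugars accumulate and bind carbohydrate response elements, which are tandem E-box-like sequences. TXNIP and ARRDC4 are the best known MondoA targets and are widely used as readouts of glucose sensing.

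The promoters of TXNIP and ARRDC4 are shown because these 2 genes are the alpha-arrestins whose RNA was lower in VIRMA-overexpressing cells. Each run is the 250 bases upstream of a RefSeq start site (GRCh38.p14), 5′ to 3′ on the strand of the gene, at chr1:145996580-145996829 (minus strand) for TXNIP and at chr15:97960453-97960702 (plus strand) for ARRDC4. Capitals mark a tandem E-box-like sequence or a CACGTG E-box, and CCAAT boxes, which read ATTGG where they lie on the opposite strand.
TXNIP: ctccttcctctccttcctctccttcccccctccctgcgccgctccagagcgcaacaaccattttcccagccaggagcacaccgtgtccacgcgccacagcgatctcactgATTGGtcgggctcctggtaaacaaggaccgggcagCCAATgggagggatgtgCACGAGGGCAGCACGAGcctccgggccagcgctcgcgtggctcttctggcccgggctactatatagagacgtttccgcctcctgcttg
ARRDC4: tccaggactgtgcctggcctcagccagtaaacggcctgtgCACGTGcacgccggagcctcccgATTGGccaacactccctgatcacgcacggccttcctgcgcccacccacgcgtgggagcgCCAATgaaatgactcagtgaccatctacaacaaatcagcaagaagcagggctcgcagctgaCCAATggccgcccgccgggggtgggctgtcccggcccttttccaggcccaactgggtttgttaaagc

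In TXNIP the capitals held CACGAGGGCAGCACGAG, at -88 to -72 from the start site, with a CCAAT box on either strand further upstream, at -140 to -136 and -105 to -101. The search asked for CACGNG, then 5 bases of any kind, then CACGNG again, on both strands, and a CACGTG can be part of such a match. Only 16 of 35114 RefSeq promoter windows of 250 bases held such a tandem sequence (0.0456%), and 5 held it together with a CCAAT box (0.0142%). ARRDC4 held no tandem sequence in this window. It held a CACGTG, at -210 to -205, and 3 CCAAT boxes. A CACGTG was found in 6.35% of all windows, and 3 or more CCAAT boxes in 2.93%.

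All 8 genes had RefSeq promoters, in 11 windows, since TXNIP, ARRDC2 and ARRDC3 each have a second start. Besides TXNIP no member held the tandem sequence, and besides ARRDC4 only MLX held a CACGTG, at -50 to -45. The forkhead core GTAAACA, present in 2.98% of all windows, lay at -124 to -118 in TXNIP and at -29 to -23 in the second ARRDC3 window on the opposite strand. A CCAAT box, present in 32% of all windows, was found in 1 or more windows of every member except MLXIPL. These motifs were chosen with the TXNIP sequence in view, and a match is a description of the letters only.

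TXNIP lies at 145992435 to 145996600 of chromosome 1 (GRCh38, minus strand). Its counts were 6942 and 6848 in the libraries with eGFP alone, against 427 and 437 in those with VIRMA. The groups were far apart and the replicates of each were close. The mean level was 83.5 ± 1.17 CPM under eGFP alone and 5.16 ± 0.172 CPM with VIRMA (SD, n = 2), which is 16.2-fold lower, or -4.02 in log2 units with an SE of 0.0594. Of 12205 tested genes, 3 had a lower log2 fold change, namely HBB and MIR4261, both at 0 in each VIRMA-overexpressing library, and RNU6-781P. These 3 passed the filter through their control libraries alone. In bulk RNA, fewer cells with TXNIP and less TXNIP RNA per cell cannot be told apart.

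The erythroid markers moved in the same direction as TXNIP, and their part in its difference was not tested. HBB counts were 2137 and 1543 under eGFP alone. Scaled to length, HBB was at 22.0 and 15.8 RPKM there, where TXNIP was at 23.3 and 22.8 RPKM. The other erythroid markers had between 1 and 71 counts there. The 2 control replicates lay further apart in HBB than in TXNIP.

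ARRDC4 (chromosome 15, 97960698 to 97973838, plus strand), the closest relative of TXNIP in its response to glucose, was the other member that fell past the 2-fold threshold. Its counts were 485 and 453 under eGFP alone and dropped to 154 and 126 with VIRMA. The groups did not overlap. ARRDC4 fell 3.40-fold, with means of 5.68 ± 0.299 and 1.67 ± 0.208 CPM (SD, n = 2), or -1.76 in log2 units with an SE of 0.171. ARRDC4 passed the filter through its control libraries alone, where it is high, and a gene that passes in this way had to differ, so no p is given for this fit. With no filter the log2 fold change was -1.80 (adjusted p 5.27e-24 by edgeR). Under the filterByExpr rule it was -1.81 (edgeR adjusted p 8.69e-09). Where each library needed 10 counts it was -1.79 (edgeR adjusted p 8.04e-10).

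ARRDC3 (chromosome 5, 91368724 to 91383359, minus strand), an adaptor for the ubiquitination of beta-adrenergic receptors and integrin beta-4, moved in the opposite direction. Its counts were 485 and 363 under eGFP alone and rose to 959 and 1001 with VIRMA. The control replicates were the least alike of any member, yet both lay below both VIRMA-overexpressing libraries. The means of ARRDC3 were 5.13 ± 1.07 and 11.7 ± 0.553 CPM (SD, n = 2). This was a rise of 1.19 in log2 units with an SE of 0.119. Of the controls, only 1 library was over the filter's RPKM of 1. ARRDC3 thus needed the VIRMA-overexpressing libraries, where it is high, to pass the filter, so no p is given for this fit. With no filter the log2 fold change was 1.155 (adjusted p 1.18e-23 by edgeR). Control replicate 2, the lower of the pair, decides whether ARRDC3 passes the 2-fold threshold: without it the log2 fold change was 0.99, and without control replicate 1 it was 1.41. The antisense gene ARRDC3-AS1 shares 145 exonic bases with ARRDC3 and had 41 to 96 counts per library.

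ARRDC1 (chromosome 9, 137605654 to 137615360, plus strand), which drives the budding of small vesicles from the plasma membrane, was the most abundant member. Its counts were 22978 and 22242 under eGFP alone and 29406 and 29266 with VIRMA. Both VIRMA-overexpressing libraries lay above both controls, with means of 350.2 ± 4.77 and 273.7 ± 7.51 CPM (SD, n = 2). This was a rise of 0.36 in log2 units with an SE of 0.0307 (adjusted p 1.29e-12 by edgeR). ARRDC1-AS1, on the opposite strand, shares 29 exonic bases with it and had 2027 to 2450 counts.

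ARRDC2 (chromosome 19, 18001132 to 18014102, plus strand), an adaptor of the same family, differed by about as much as ARRDC1. Its counts were 2561 and 2727 under eGFP alone and 3449 and 3434 with VIRMA. The groups did not overlap, at 32.0 ± 1.28 and 41.1 ± 0.572 CPM (SD, n = 2). ARRDC2 rose by 0.36 in log2 units with an SE of 0.0534 (adjusted p 2.58e-07 by edgeR).

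The RNAs of the glucose-sensing factors differed little. MLXIP (chromosome 12, 122078722 to 122147347, plus strand), the MondoA gene, was counted 5046 and 5214 times under eGFP alone and 4861 and 4764 times with VIRMA. The groups did not overlap, and the difference was -0.11 in log2 units with an SE of 0.0423 (adjusted p 0.0182 by edgeR). MLX (chromosome 17, 42567068 to 42573239, plus strand), their common partner, was counted 2719 and 2770 times against 2571 and 2471 times. Its difference was -0.14 in log2 units with an SE of 0.0564 (adjusted p 0.0239 by edgeR). MLX shares 770 exonic bases with PSMC3IP on the opposite strand, which had 275 to 349 counts.

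Both differences depended on the scaling. With upper-quartile factors MLXIP was at -0.04 and MLX at -0.07, and with library totals they were at -0.03 and -0.06, and neither passed. Without control replicate 2 neither passed either, at -0.09 for MLXIP (edgeR adjusted p 0.112) and -0.13 for MLX (edgeR adjusted p 0.0879). MLXIP did not pass without VIRMA-overexpressing replicate 1 (-0.11, edgeR adjusted p 0.0619) and MLX did not pass without VIRMA-overexpressing replicate 2 (-0.13, edgeR adjusted p 0.0889).

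MLXIPL (chromosome 7, 73593194 to 73624543, minus strand), the ChREBP gene, is best known in liver and fat but was expressed in SKBR3 cells. Its counts were 2069 and 2014 under eGFP alone and 2115 and 1971 with VIRMA. It was the only member whose groups overlapped. The log2 fold change was -0.02 with a 95% interval of -0.15 to 0.11 (edgeR adjusted p 0.796), so that a change of 2-fold lay outside the interval.

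Of the 7 members other than TXNIP, 3 rose (ARRDC1, ARRDC2, ARRDC3), 3 fell (ARRDC4, MLXIP, MLX) and 1 did not pass at an adjusted p below 0.05. Among all tested genes 35.1% were higher and 35.9% lower by the same rule, so the counts of members were near the background. ARRDC4 had passed the filter through its control libraries alone, so its call is no support for these counts. ARRDC3 had needed its VIRMA-overexpressing libraries to pass, so its call is no support for them either. With upper-quartile factors or library totals, 1 member fell in place of 3. With a log2 fold change above 1 or below -1 as well, 1 member was higher (ARRDC3) and 1 lower (ARRDC4), both with the same limits. Without control replicate 2 ARRDC3 was at 0.99, short of this threshold. Among all tested genes 4.52% passed both thresholds upward and 2.93% downward. No overlap between groups was seen in 7 members, TXNIP included, and in 84.3% of all tested genes. The median log2 fold change over the 7 members was -0.02, beside 0.01 for all tested genes.

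**Figure D1:**
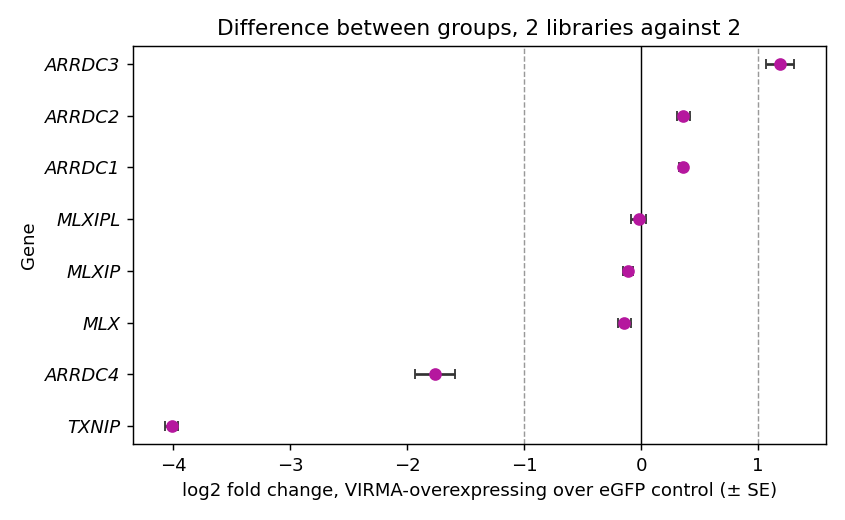
Log2 fold change of each of the 8 genes, VIRMA-overexpressing over eGFP control (x axis), with bars of 1 SE and dashed lines at the 2-fold threshold. TXNIP (-4.02, picked for this fall) and ARRDC4 (-1.76) lie to the left, ARRDC3 (1.19) lies to the right, and the 3 glucose-sensing factors lie between -0.14 and -0.02.

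Levels per length were compared between genes as RPKM after TMM scaling. In the controls the order was ARRDC1 (71.6 ± 1.97 RPKM), TXNIP (23.0 ± 0.324), MLX (7.80 ± 0.068), ARRDC2 (6.90 ± 0.276), MLXIPL (5.13 ± 0.120), MLXIP (4.47 ± 0.0837), ARRDC4 (1.39 ± 0.0734) and ARRDC3 (1.04 ± 0.216; SD, n = 2). The ranges of no neighbouring pair overlapped in either group. The narrowest gap in the controls was that between ARRDC4 and ARRDC3, at 0.354 RPKM.

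In the VIRMA-overexpressing cells TXNIP moved from the second-highest to the second-lowest place in this order, at 1.42 ± 0.0475 RPKM (SD, n = 2), below ARRDC3 at 2.37 ± 0.112 RPKM. ARRDC1 stayed first at 91.6 ± 1.25 RPKM, and ARRDC4 was last at 0.410 ± 0.0511 RPKM. ARRDC1 exceeded TXNIP by a ratio of 3.08 to 3.14 in the controls and 63.5 to 65.3 in the VIRMA-overexpressing cells. TXNIP exceeded ARRDC4 by a ratio of 16.1 to 17.0 in the controls and 3.11 to 3.90 in the VIRMA-overexpressing cells. The ratio of MLX to MLXIP was 1.73 to 1.76 and 1.69 to 1.73.

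**Figure D2:**
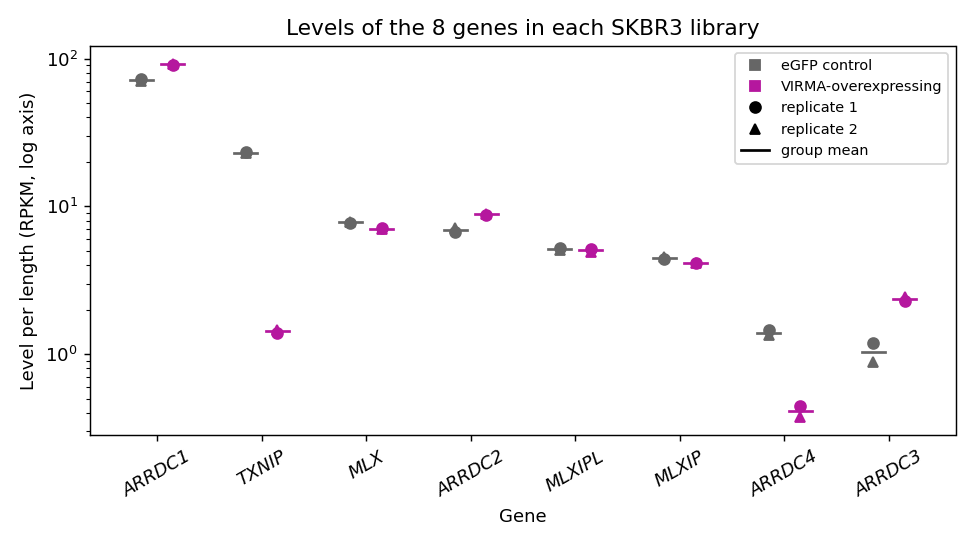
Level per length (RPKM, log axis) of the 8 genes in each library, ordered by the control mean, with eGFP control in grey, VIRMA-overexpressing in magenta, replicates as circles and triangles, and group means as lines. TXNIP falls from about 23.0 to 1.42 RPKM, while MLX, MLXIPL and MLXIP stay between 4.12 and 7.85 RPKM in every library.

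On TMM-scaled RPKM the summed level of the 5 alpha-arrestins was nearly the same in all 4 libraries. It was 105.6 and 102.3 RPKM under eGFP alone against 103.6 and 105.7 RPKM with VIRMA, so the ranges of the groups overlapped. This depended on the scaling. With TPM, which scales levels per length to the same total in each library, the sum was higher in both VIRMA-overexpressing libraries than in both controls. ARRDC1 alone was at 185.3 and 174.7 TPM under eGFP alone and at 242.8 and 244.4 TPM with VIRMA. The make-up of the sum differed. TXNIP gave 22.0% and 22.3% of this sum under eGFP alone, against 1.34% and 1.38% with VIRMA. The share of ARRDC1 was 69.1% and 68.6% under eGFP alone, against 87.6% and 87.5% with VIRMA. The shares of ARRDC2 (6.35% and 6.93% against 8.46% in both) and ARRDC3 (1.13% and 0.867% against 2.21% and 2.32%) were higher in VIRMA-overexpressing cells. The share of ARRDC4 was lower, at 1.37% and 1.31% against 0.430% and 0.353%.

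**Figure D3:**
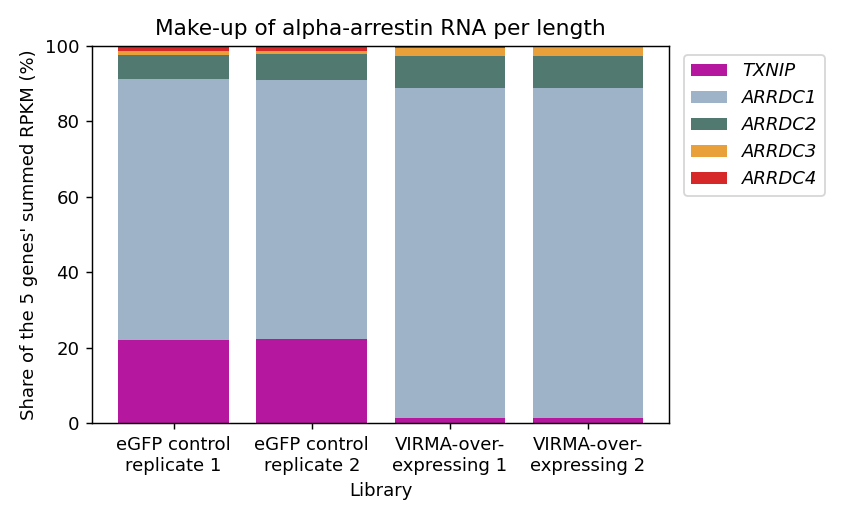
Share of each alpha-arrestin in the summed RPKM of the 5 genes (y axis, percent), 1 bar per library. TXNIP takes 22.0% and 22.3% of the control bars and 1.34% and 1.38% of the VIRMA-overexpressing bars, and ARRDC1 fills most of each bar.

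The genes whose pattern was most like that of TXNIP were sought among the 12197 other tested genes, by the Euclidean distance over the 4 libraries of log2 CPM centred on each gene's mean. The nearest were FOSB (distance 1.03), MIR4261 (1.21), RNU6-781P (1.40), the clone-named gene RP11-1100L3.8 (1.41) and KLF2 (1.48). FOSB, an AP-1 transcription factor, was counted 5514 and 5178 times under eGFP alone and 671 and 700 times with VIRMA. KLF2, a Kruppel-like transcription factor, was counted 3109 and 3175 times against 533 and 567 times. MIR4261 and RNU6-781P had at most 19 counts in any library and passed the filter through the control libraries alone. This likeness was measured on the same contrast by which TXNIP was selected.

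The pathway genes around TXNIP were read from 7 lists. The thioredoxin system, the redox proteins among which TXNIP finds its binding partner, was lower throughout: of 15 listed genes 11 were tested, and 11 fell and 0 rose at an edgeR adjusted p below 0.05, beside 35.9% of all tested genes lower. With upper-quartile factors or library totals 9 fell, as they did without control replicate 2 or VIRMA-overexpressing replicate 1. The median log2 fold change was -0.43, beside 0.01 for all tested genes. TXN, the thioredoxin that TXNIP binds, fell from 259.1 to 164.9 CPM (log2 fold change -0.65, SE 0.032, edgeR adjusted p 2.09e-19). The peroxiredoxins PRDX1 (-0.75) and PRDX2 (-0.68), which thioredoxin reduces, fell too, and MSRB1, a methionine sulfoxide reductase, fell by 1.05 in log2 units (SE 0.0571, adjusted p 3.81e-18 by edgeR).

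The list of carbohydrate response element genes held known targets of ChREBP or MondoA other than the members. Of 21 genes 15 were tested, of which 4 rose and 10 fell, where 35.1% of all tested genes were higher and 35.9% lower. The median log2 fold change was -0.55. The largest fall was that of THRSP, a regulator of lipid synthesis, from 6.29 to 1.72 CPM (-1.87, SE 0.165, edgeR adjusted p 2.25e-12). FASN, the fatty acid synthase, fell from 6624 to 3071 CPM (-1.11, SE 0.0213, edgeR adjusted p 1.34e-31). SCD (-0.90), ACLY (-0.73) and ELOVL6 (-0.91), further enzymes of fatty acid synthesis, fell as well. These lipid genes are also known targets of SREBP factors. KHK, the fructokinase, was at -1.02 and passed the filter through its control libraries alone, so its fall is no support for the count. HK2, a hexokinase of glucose-consuming tumours, rose from 101.0 to 148.1 CPM (0.55, SE 0.0345, edgeR adjusted p 2.00e-16).

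Of 14 genes that form or remove glucose 6-phosphate, the sugar that MondoA senses, 9 were tested. Of these 2 were higher and 7 lower (35.1% and 35.9% of all tested genes), with a median log2 fold change of -0.25. GPI, which converts it to fructose 6-phosphate, was at -0.68, and SLC37A4, which carries it into the endoplasmic reticulum, was at -0.69. HK2, counted in this list as well, rose, while HK1, named after its values were seen, fell by 0.22 in log2 units (adjusted p 3.43e-08 by edgeR). Without control replicate 1 the count of higher genes was 1.

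Among glucose transporters 6 of 15 genes were tested, and 3 were higher and 3 lower, with a median log2 fold change of 0.03. The shares among all tested genes were 35.1% and 35.9%. SLC2A1 (GLUT1), which TXNIP and ARRDC4 are known to remove from the cell surface, was the most abundant. It fell from 287.6 to 222.5 CPM (-0.37, SE 0.0312, edgeR adjusted p 7.01e-13). SLC2A6 (GLUT6) fell by 1.38 in log2 units (SE 0.0817, adjusted p 4.30e-17 by edgeR). SLC2A10 (GLUT10) rose by 1.20 in log2 units (SE 0.0583, adjusted p 1.49e-19 by edgeR) and SLC2A11 by 0.44. SLC2A4 (GLUT4), the remaining higher gene, passed the filter through its VIRMA-overexpressing libraries alone. With any of the 3 other filters the count of lower transporters was 5 and the median turned negative (-0.31 to -0.40). Without control replicate 1 the median was -0.02.

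The ubiquitin ligases of the NEDD4 family and their adaptors, the partners of alpha-arrestins, moved by less than 2-fold. Of 11 genes 7 were tested, with 3 higher and 2 lower, beside 35.1% and 35.9% of all tested genes, and a median log2 fold change of 0.10. ITCH, the ligase known to ubiquitinate TXNIP, was at 0.34 (SE 0.0716, edgeR adjusted p 6.34e-05), SMURF1 at 0.21 and SMURF2 at 0.34. The adaptor NDFIP1 was at -0.14 and lost its call with upper-quartile factors and library totals, where 5 genes of this list were higher and 0 lower. Without control replicate 1 or VIRMA-overexpressing replicate 2 the count of lower genes was 1.

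Of 10 partners of MLX or MAX in the wider network, 8 were tested, with 4 higher and 3 lower (35.1% and 35.9% of all tested genes) and a median log2 fold change of 0.21. MAX, the shared partner of MYC and the MXD repressors, rose from 52.8 to 71.7 CPM (0.44, SE 0.0417, edgeR adjusted p 1.11e-11). MYC fell by 0.40 in log2 units (SE 0.0327, adjusted p 2.95e-13 by edgeR). MXD4, a repressor that can pair with MLX, was at -0.57 and MXD3 at -0.42.

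Of 8 genes with an arrestin fold outside the 5 alpha-arrestins, 5 were tested, with 0 higher and 3 lower, beside 35.1% and 35.9% of all tested genes, and a median log2 fold change of -0.16. ARRB1 (beta-arrestin 1), which desensitises G protein-coupled receptors, fell from 38.7 to 25.2 CPM (-0.62, SE 0.0565, edgeR adjusted p 4.70e-12), and ARRB2 was at -0.09 (edgeR adjusted p 0.059). The retromer subunits VPS26A and VPS26B were at -0.17 and -0.16. With library totals 1 gene of this list was lower in place of 3. ARRDC5, the remaining alpha-arrestin, was not tested, with counts of 3 and 1 under eGFP alone and 17 and 3 with VIRMA.

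**Figure D4:**
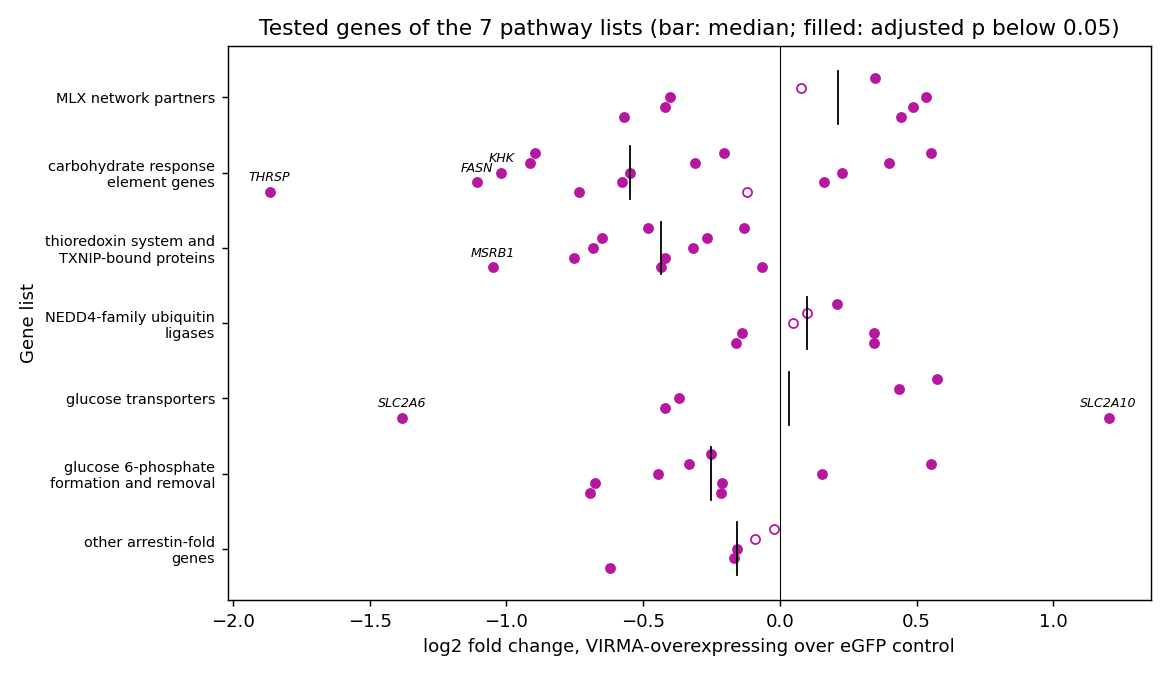
Log2 fold change (x axis) of each tested gene in the 7 pathway lists (y axis), with filled points for an edgeR adjusted p below 0.05, bars at list medians and names for genes past 2-fold. With TMM scaling the points of the thioredoxin list all lie to the left of 0 (9 of 11 fell with library totals), and those of the glucose transporters spread from -1.38 to 1.20.

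The tandem E-box-like sequence of the TXNIP promoter was also read against the differences in other genes. Of the 16 genes with such a sequence, 10 besides TXNIP were tested, with 4 higher and 3 lower at an edgeR adjusted p below 0.05, near the 35.1% and 35.9% of all tested genes. The largest difference among these was that of GFPT1, the first enzyme of the hexosamine pathway, which rose from 57.1 to 145.2 CPM (1.35, SE 0.0375, edgeR adjusted p 1.14e-26). RAN, a GTPase of nuclear transport, fell by 0.78 in log2 units (SE 0.0313, adjusted p 6.13e-22 by edgeR). GFPT1 and RAN were named after their values were seen.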

How the data were processed

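Per the submitters' processing notes, the authors trimmed reads with Trimmomatic 0.39, aligned them to hg38 with STAR 2.5.2a and counted them per gene with featureCounts, and deposited raw counts with each gene's exonic length. The strand setting of the counting is not given in the sources used here, so overlapping and antisense genes are uncertain. The columns not named for eGFP bear only a number, and were taken as the VIRMA-overexpressing group because it is the only other one. VIRMA counts were then checked against this. Genes with RPKM (on library totals) above 1 in at least 2 libraries were tested by the quasi-likelihood test of edgeR 4.0.16 (R 4.3.3, TMM, group as only term, Benjamini-Hochberg over 12205 genes). The SE is the estimate over the root of F. With 2 libraries against 2, an exact permutation test cannot give a p below 0.33, so edgeR, which pools dispersion over genes, was used. Members, lists and motifs were chosen with earlier results of these data known. From each list, text names up to 4 genes of smallest adjusted p, plus those past both thresholds. ARRDC5, ARRB1, ARRB2 and the 5 genes most like TXNIP are always named, and others where stated. A gene that this rule names is not reported here. Alternatives were DESeq2 1.42.0, limma 3.58.1 (voom), other scalings and filters, the replicate block and leaving out each library.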

Additional observations from a re-analysis of the deposited data

How the results depend on the processing

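TXNIP, ARRDC1, ARRDC2, ARRDC3 and ARRDC4 kept their direction under every alternative run. ARRDC1 and ARRDC2 kept an adjusted p below 0.05, by the test of each fit, wherever both groups had 2 libraries. ARRDC3 and ARRDC4 had an edgeR adjusted p below 0.05 with each of the 3 other filters. Neither of these would have passed the main filter without the group where it is high. Fits on the main filter are therefore no support for ARRDC3 or ARRDC4. With upper-quartile factors, which moved the median of all genes by 0.0715 in log2 units, MLXIP (-0.04086) and MLX (-0.07135) no longer passed, MLXIPL turned to 0.05205, and 1 member in place of 3 was lower. With library totals (a shift of 0.0857) the values were -0.02662, -0.05714 and 0.06615, again with 1 member lower. Both scalings gave 5 higher and 0 lower NEDD4-family genes, and library totals gave 1 lower gene in the list of other arrestin-fold genes. Past both thresholds, 552 genes were higher and 358 lower in all, against 1044 and 808 under the filterByExpr rule, 1137 and 820 unfiltered, and 930 and 689 where each library needed 10 counts, all of which tested more low genes. The lower glucose transporters were then 5, with medians of -0.3229, -0.3137 and -0.3996. With TPM in place of RPKM the ratio of MLXIPL levels, VIRMA-overexpressing over control, was 1.044 in place of 0.9865. For the other changes the cause was not tested. When single libraries were dropped, as planned (edgeR's test of these fits, added after seeing the data, assumes that the lone library varies like the other group), MLXIP ran from -0.1358 to -0.09351, MLX from -0.1562 to -0.1317 and MLXIPL from -0.05354 to 0.01348, being 7.7e-05 without control replicate 1. The median of glucose transporters ran from -0.02325 to 0.09235, lower members from 1 to 3, lower NEDD4-family genes from 1 to 2 and higher glucose 6-phosphate genes from 1 to 2. TXNIP ran from -4.05 to -3.98. Replicates of the same number did not deviate together (correlation 0.0346 over 12205 genes). Whether libraries of the same number were handled together is not given, and this value cannot settle it. With the replicate block ARRDC3 was at 1.196 and ARRDC4 at -1.768, and no call among the members changed. ARRDC3 and ARRDC4, with at most 1001 counts in any library, had the largest SE of the members (0.119 and 0.171).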
